A study of Mus musculus with 23 samples.

Results

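The Ifitm genes Ifitm1, Ifitm2, Ifitm3 and Ifitm6 encode small proteins anchored in cell membranes. They were 4 of the 13572 genes in a count table of type 1 conventional dendritic cells (cDC1) sorted from mouse melanomas, and were taken by gene name. The members were chosen by their counts in these same pools, which differed between the 2 tumour types. The difference between the tumours is therefore a description without a test. All 4 passed the filter on low counts, as did 2076 genes in all.

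The mice were wild-type C57BL/6 animals with a subcutaneous BRAFV600E melanoma, analysed 6 days after the cancer cells were injected. In the PGE2-deficient group the cancer cells carried a Ptgs1/Ptgs2 KO and so lacked the cyclooxygenases that start the synthesis of prostaglandin E2 (PGE2). In the control group the BRAFV600E cancer cells kept these enzymes and made PGE2. The animals themselves kept Ptgs1 and Ptgs2 in both groups, and the labels do not say how many knockout clones were used. Live cells positive for CD45, MHC-II, CD11c and CD103 and negative for CD11b were sorted into lysis buffer in pools of 10 cells and sequenced with Smart-seq3. Each group had 4 mice, with 11 pools from PGE2-deficient tumours and 12 from control tumours, since PGE2-deficient mouse 2 had 2 pools and every other mouse had 3. Tumours in mice whose dendritic cells lack PGE2 receptors, which the protocol also mentions, were not analysed here.

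IFITM proteins are induced by interferons and hinder the fusion of enveloped viruses with cell membranes. IFITM3 acts mainly in endosomes, where S-palmitoylation and an endocytic sorting signal keep it, and IFITM1 lies more at the cell surface. cDC1 are the dendritic cells that cross-present antigen to CD8 T cells. PGE2 signals to them through the receptors EP2 and EP4, which raise cyclic AMP.

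The members lie together on chromosome 7 within 63.1 kb (GRCm38, GENCODE annotation). Ifitm2 (ENSMUSG00000060591) spans chr7:140954837-140955987 and Ifitm1 (ENSMUSG00000025491) chr7:140967221-140969825, while Ifitm3 (ENSMUSG00000025492) spans chr7:141009586-141010770 and Ifitm6 (ENSMUSG00000059108) chr7:141015699-141017924. Ifitm1 is read from the plus strand and the other genes from the minus strand. All are protein-coding, with 3 exons in the transcript used here for Ifitm1 and Ifitm6 and 2 exons for Ifitm2 and Ifitm3. The promoter windows below, from 250 bases before to 50 bases after the transcription start in RefSeq (GRCm38.p6), are shown because the 4 genes differed in the same direction but by unequal amounts. Capitals mark matches to the core of the interferon-stimulated response element (GAAANNGAAA) or to the gamma-activated site (TTCNNNGAA), searched on both strands. The window of Ifitm1 is chr7:140967826-140968125 on the plus strand, that of Ifitm2 chr7:140955912-140956211 on the minus strand, that of Ifitm3 chr7:141010695-141010994 on the minus strand and that of Ifitm6 chr7:141016843-141017142 on the minus strand.
Ifitm1: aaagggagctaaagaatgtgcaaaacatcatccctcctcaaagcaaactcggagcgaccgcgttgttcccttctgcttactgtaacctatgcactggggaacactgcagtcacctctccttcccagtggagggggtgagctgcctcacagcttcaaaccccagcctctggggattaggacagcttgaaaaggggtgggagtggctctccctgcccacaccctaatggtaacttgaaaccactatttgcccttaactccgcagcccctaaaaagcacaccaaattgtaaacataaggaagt
Ifitm2: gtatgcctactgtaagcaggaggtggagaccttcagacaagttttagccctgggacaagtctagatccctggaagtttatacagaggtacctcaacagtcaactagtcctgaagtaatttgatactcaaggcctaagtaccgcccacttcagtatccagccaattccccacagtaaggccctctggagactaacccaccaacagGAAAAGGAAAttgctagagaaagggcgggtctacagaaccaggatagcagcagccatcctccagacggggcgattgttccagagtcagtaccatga
Ifitm3: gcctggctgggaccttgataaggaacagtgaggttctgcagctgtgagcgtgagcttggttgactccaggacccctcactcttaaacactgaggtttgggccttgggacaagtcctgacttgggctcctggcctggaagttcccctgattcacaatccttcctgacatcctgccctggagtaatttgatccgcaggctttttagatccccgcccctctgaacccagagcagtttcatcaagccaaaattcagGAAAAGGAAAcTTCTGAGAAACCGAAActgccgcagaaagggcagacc
Ifitm6: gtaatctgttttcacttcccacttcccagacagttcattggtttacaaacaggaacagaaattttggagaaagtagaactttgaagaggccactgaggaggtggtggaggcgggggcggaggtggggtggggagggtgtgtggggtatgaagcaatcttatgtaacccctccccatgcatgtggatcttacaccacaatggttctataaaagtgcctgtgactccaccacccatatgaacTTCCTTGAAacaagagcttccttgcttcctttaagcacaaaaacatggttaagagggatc
The response element core was found in the windows of Ifitm2 (GAAAAGGAAA, starting at position -46 from the transcription start) and Ifitm3 (GAAAAGGAAA at 2 and GAAACCGAAA at 19). The gamma-activated letters were found in Ifitm3 (TTCTGAGAA at 13, overlapping the second response element core) and in Ifitm6 (TTCCTTGAA at -10). Of 32851 RefSeq promoter windows of this length, 3.44% held the response element core and 8.3% the gamma-activated letters. The cyclic AMP response element, searched as TGACGTCA (1.79% of windows) and as its core TGACG (20.8%), was in none of the 4 windows. The window of Ifitm1 held no match to any of these letters. The windows of Ifitm1 and Ifitm6 lie inside the GENCODE genes given above, whose own starts lie further upstream and were not searched. Those of Ifitm2 and Ifitm3 reach across the GENCODE starts, so the 4 windows do not cover like places. A missing match says only that these letters are not in the window.

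Library depth limited what single pools could show. The 23 libraries held 25571 to 98554 counts (median 49506), and the libraries of a mouse summed to 101017 to 230478. The cDC1 marker list was detected whole (12 of 12 genes) and summed to 4130 to 7820 counts per 1000000 in PGE2-deficient pools and 1620 to 5010 in control pools. Markers of other cells were also found. Summed over pools, the list for plasmacytoid dendritic cells (10 genes) had 170 counts in the PGE2-deficient group and 314 in the control group. That for cDC2 (9 genes) had 67 and 182 in the same order, that for T cells (10 genes) 68 and 15, and that for monocytes and macrophages (15 genes) 1024 and 1056. Smaller sets of markers more specific to each cell type were chosen from these lists after the data were seen. Siglech, Ly6d, Klk1, Cox6a2 and Ccr9 of plasmacytoid dendritic cells summed to 1 count in the PGE2-deficient group and 108 in the control group. The 4 genes Cd209a, Clec10a, Mgl2 and Sirpa of cDC2 summed to 34 in the PGE2-deficient group and 136 in the control group. The macrophage set (7 genes) summed to 15 and 243, and the T cell set (6 genes) to 56 and 11. Of the 243 macrophage counts, 116 lay in 1 pool of control mouse 2 and 105 in 1 pool of control mouse 4. Not every gene of the whole lists went the way of these sets. Bst2 of the plasmacytoid list, also an interferon-induced gene, had 131 counts in the PGE2-deficient group and 68 in the control group, and Cd209d of the cDC2 list had 24 and 8. In the monocyte and macrophage list Plac8 had 674 and 417, Ccr2 118 and 50, Ly6c2 50 and 48 and Fcgr1 11 and 8. Its other genes with a row were equal between the groups or lower in the PGE2-deficient group. At least 1 set reached 10 counts in 3 PGE2-deficient and 8 control pools, and the Ifitm values without these 11 pools are given beside the results. Below, only these 11 are called pools that held markers of other cells, or pools with markers. Every control pool had some counts of the cDC2 set, so the pools kept are not free of such markers. The sorted cells do not carry the knockout, so their Ptgs2 RNA (14 counts in the PGE2-deficient group and 4 in the control group) does not check it, and Ptgs1 was not analysed here. In a pool of cells, fewer cells with a transcript and less of it per cell cannot be told apart.

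Ifitm1 RNA differed most among the members and was far lower in cDC1 from PGE2-deficient tumours. It reached 321.6, 569.4, 188.8 and 1164 scaled counts per 1000000 (CPM) in PGE2-deficient mice 1 to 4, against 6212, 7055, 7176 and 7997 CPM in control mice 1 to 4. Every PGE2-deficient mouse was below every control mouse, and the groups lay far apart. The means were 560.9 ± 431.8 CPM in the PGE2-deficient group and 7110 ± 730.7 CPM in the control group (SD, n = 4 mice each), a log2 fold change of -3.69 ± 0.34 (SE), or 12.9-fold lower. Over pools, Ifitm1 ran from 0 through a median of 268 to 2127 CPM in PGE2-deficient tumours, against 1619, 6799 and 13950 CPM in control tumours. Of the 11 PGE2-deficient pools, 1 (from mouse 4) exceeded the lowest control pool. Without PGE2-deficient mouse 4 the log2 fold change was -4.41.

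Ifitm6 was the scarcest of the genes and also much lower in PGE2-deficient tumours. PGE2-deficient mice 1 to 4 had 16, 1, 11 and 0 counts, or 155.9, 11.9, 56.1 and 0 CPM, against 22, 56, 45 and 54 counts, or 253.1, 481.8, 451.6 and 423.4 CPM, in control mice 1 to 4. The 0 of PGE2-deficient mouse 4 allows up to 3 counts, which is 24.8 CPM there. The groups did not overlap, with PGE2-deficient mouse 1 nearest to the control group. In that mouse all 16 counts came from 1 pool. The means were 55.98 ± 70.88 CPM in the PGE2-deficient group and 402.5 ± 102.4 CPM in the control group (SD, n = 4), a log2 fold change of -2.84 ± 0.50 (SE). Ifitm6 was at 0 in 6 of 11 PGE2-deficient pools, whereas each of the 12 control pools had 3 counts or more. Without PGE2-deficient mouse 1 the log2 fold change was -3.79.

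Ifitm2 and Ifitm3, close relatives that act mainly in endosomes, were lower by much less. Ifitm2 had 1218, 794.8, 1209 and 693.4 CPM in PGE2-deficient mice 1 to 4, against 1438, 2074, 2640 and 2407 CPM in control mice 1 to 4. The gap between the groups was narrow, since control mouse 1 stood close to PGE2-deficient mice 1 and 3. The means were 978.9 ± 274.3 CPM in the PGE2-deficient group and 2140 ± 522.3 CPM in the control group (SD, n = 4 each), a log2 fold change of -1.12 ± 0.20 (SE).

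Ifitm3, the best studied antiviral member, had 1442, 830.4, 1750 and 1519 CPM in PGE2-deficient mice 1 to 4, against 2059, 2435, 2820 and 2525 CPM in control mice 1 to 4. The groups of mice again did not overlap. The means were 1385 ± 392.5 CPM in the PGE2-deficient group and 2460 ± 313.8 CPM in the control group (SD, n = 4 each), a log2 fold change of -0.81 ± 0.18 (SE). Pool by pool the groups did overlap for these genes. Of the 11 PGE2-deficient pools, 8 reached the lowest control pool for Ifitm2 and 7 did for Ifitm3, against 1 for Ifitm6. Of the 12 control pools, 4 were at or below the highest PGE2-deficient pool for Ifitm2, 4 for Ifitm3 and 6 for Ifitm6.

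**Figure D1:**
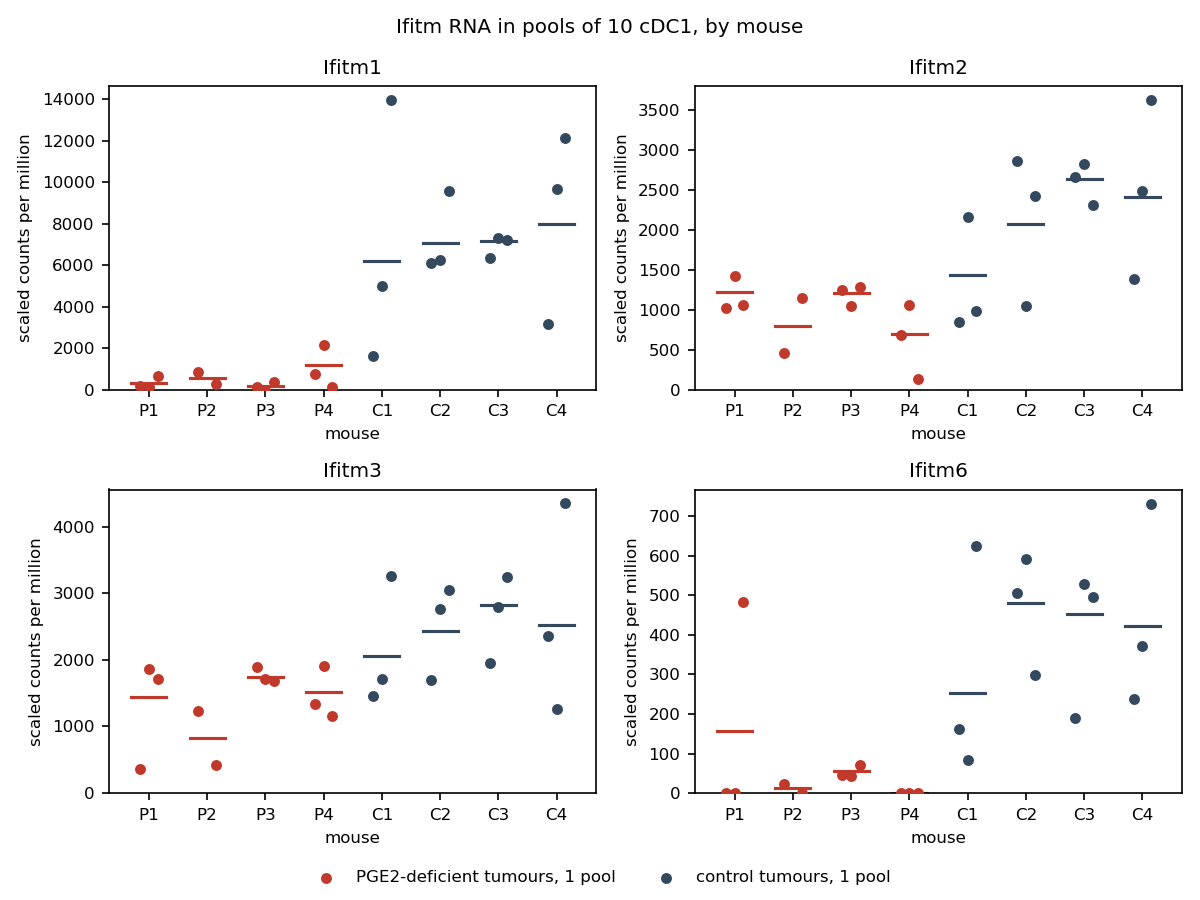
Scaled counts per 1000000 (CPM) of the 4 Ifitm genes, with 1 point per pool of 10 cells and a line at the value of each mouse (pools summed). PGE2-deficient mice (P1 to P4) are left of control mice (C1 to C4); for Ifitm1 the PGE2-deficient mice lie between 188.8 and 1164 and the control mice between 6212 and 7997.

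All 4 members had mice that did not overlap between the groups, in the lower direction. Over all 2076 tested genes 5.73% did so. The median log2 fold change was -1.98 over the members and 0.01 over all tested genes, of which 49.3% were negative. The members were picked for such values, so this count is no separate support. In edgeR's quasi-likelihood test with Benjamini-Hochberg adjustment, 2.26% of the tested genes were called lower (47 genes) and 2.7% higher (56 genes) in PGE2-deficient tumours. The split depended on the scaling, with 24 lower and 70 higher by library totals alone and 67 lower and 45 higher with upper quartile factors. At an unadjusted p under 0.05, 18.7% of the tested genes passed, 9.63% higher and 9.1% lower. All 4 members kept a negative fold change under each scaling.

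Without the 11 pools that held markers of other cells, 8 PGE2-deficient and 4 control pools remained and control mouse 4 dropped out. Ifitm1 then had 0, 160.3 and 775.9 CPM (lowest, median and highest pool) in the PGE2-deficient group, against 1619, 8449 and 13950 CPM in the control group. The pools did not overlap for Ifitm1, but how many of all tested genes did so was not counted. The PGE2-deficient pool of mouse 4 at 2127 CPM, which had overlapped the control pools, was among those left out. For the other members the pools did overlap. Ifitm2 had 132.7, 1050 and 1421 CPM in the PGE2-deficient group, against 842.1, 1704 and 2824 CPM in the control group. Ifitm3 had 366, 1525 and 1895 CPM in the PGE2-deficient group, against 1458, 2928 and 3264 CPM in the control group. Ifitm6 had 0, 0 and 482.9 CPM in the PGE2-deficient group, against 161.9, 413.5 and 625.9 CPM in the control group. The median pool was thus lower in the PGE2-deficient group for each member. The log2 fold changes were -4.79 for Ifitm1, -1.02 for Ifitm2, -1.07 for Ifitm3 and -2.68 for Ifitm6.

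Because the fold changes were unequal, the make-up of the Ifitm counts differed. Ifitm1 supplied 10.2%, 25.8%, 5.89% and 34.5% of the summed Ifitm counts in PGE2-deficient mice 1 to 4, against 62.4%, 58.6%, 54.8% and 59.9% in control mice 1 to 4. Its share was thus low but variable in PGE2-deficient mice and nearly constant in control mice once pools were summed. Over single pools the Ifitm1 share ran from 0% to 41.8% in PGE2-deficient tumours and from 39.7% to 74.1% in control tumours. Ifitm3 made up 45.8% ± 6.96 of the Ifitm counts in the PGE2-deficient group and 20.3% ± 1.09 in the control group (SD, n = 4 each). Ifitm2 made up 33.2% ± 8.58 in the PGE2-deficient group and 17.4% ± 2.4 in the control group, and Ifitm6 made up 1.81% ± 2.23 and 3.29% ± 0.607. These shares do not depend on library depth or scaling. Together the 4 genes held 0.241%, 0.184%, 0.272% and 0.283% of all counts in PGE2-deficient mice 1 to 4, and 0.765%, 0.928%, 1.05% and 1.1% in control mice 1 to 4.

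**Figure D2:**
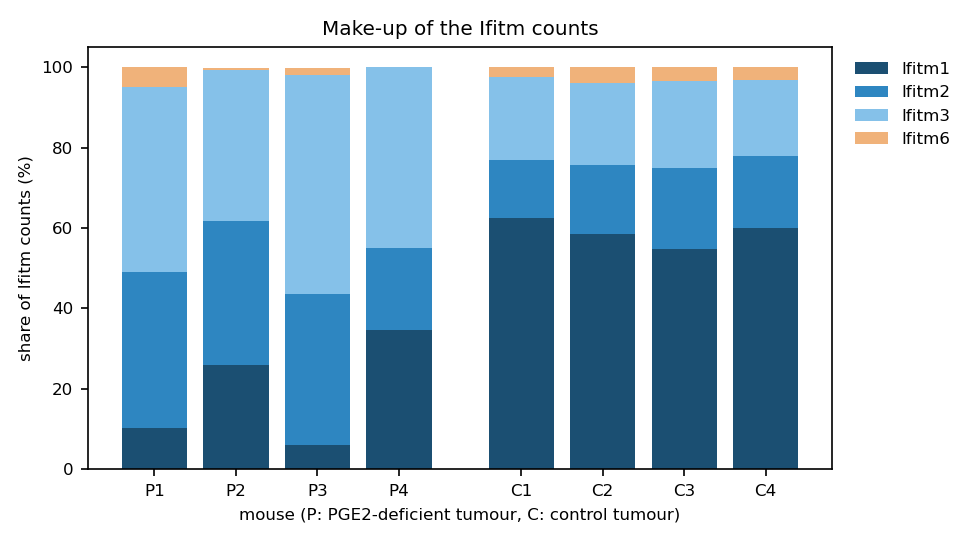
Share of each gene in the summed counts of Ifitm1, Ifitm2, Ifitm3 and Ifitm6, 1 bar per mouse. Ifitm1 fills 5.89% to 34.5% of the bar in PGE2-deficient mice (P1 to P4) and 54.8% to 62.4% in control mice (C1 to C4).

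Mean levels were ordered differently in the 2 groups, and dividing by transcript length did not change either order. The lengths were 882 bases for Ifitm1, 655 for Ifitm2 and 678 each for Ifitm3 and Ifitm6. In the PGE2-deficient group the order of levels in CPM per kb was Ifitm3 (2043 ± 578.8), Ifitm2 (1494 ± 418.6), Ifitm1 (636 ± 489.6) and Ifitm6 (82.56 ± 104.5), and each neighbour in this order overlapped the next over mice (SD, n = 4). In the control group Ifitm1 led with 8061 ± 828.1 CPM per kb and overlapped no other member. Ifitm3 (3628 ± 462.7) and Ifitm2 (3267 ± 797.4) overlapped each other there, and Ifitm6 (593.6 ± 151) was below both. Whether whole transcripts or molecular tags were counted is not given in the sources used here, so levels per kb hold only if counts grow with length.

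Pools of the same mouse differed more for Ifitm1 and Ifitm6 than for most genes. The coefficient of variation between pools of a mouse was 57.5% for Ifitm1 and 58.6% for Ifitm6, above that of 96% and 96.3% of the tested genes. It was 36.0% for Ifitm2 and 36.2% for Ifitm3, near the median of 33.3% over all tested genes. Genes as abundant as Ifitm1 had 25.1% in the fitted trend, and those as abundant as Ifitm6 had 36.4%. In PGE2-deficient mouse 4 the Ifitm1 pools ran from 132.7 to 2127 CPM. In control mouse 1 they ran from 1619 to 13950 CPM, and in control mouse 3 only from 6371 to 7300 CPM.

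Correlations between members over the pools of a group were weak to moderate. The Pearson correlation of log2(CPM + 10) between Ifitm1 and Ifitm6 was -0.0659 within the 11 PGE2-deficient pools and 0.623 within the 12 control pools. Between Ifitm1 and Ifitm3 it was 0.0112 in PGE2-deficient pools and 0.533 in control pools, and between Ifitm1 and Ifitm2 -0.0395 and 0.471. Ifitm3 and Ifitm6 had 0.428 in PGE2-deficient pools and 0.607 in control pools. Ifitm2 had 0.0707 and 0.132 with Ifitm3, and 0.253 and 0.144 with Ifitm6. By ranks (Spearman) Ifitm2 and Ifitm3 had 0.509 in PGE2-deficient pools and 0.105 in control pools, so the first value depends on the measure. These are descriptions over pools that share mice and depth.

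Gm7676, a gene outside the cluster, has a sequence close to that of Ifitm1. It is a processed pseudogene of 319 bases on chromosome 8 (chr8:13896311-13896629, GRCm38) that is 97.5% identical to the Ifitm1 transcript over 319 aligned bases. It had 0, 0, 0 and 3 counts in PGE2-deficient mice 1 to 4, against 10, 15, 13 and 18 counts in control mice 1 to 4. Counts were present in 1 of 11 PGE2-deficient pools and 12 of 12 control pools. Gm7676 was called lower in the edgeR test (adjusted p = 0.000412). The call is no separate support, since Gm7676 passed the count filter through its control counts and is close in sequence to Ifitm1. Per 100 counts of Ifitm1 it had 1.16 in the PGE2-deficient group and 1.81 in the control group, so its counts ran at a small fraction of those of Ifitm1. Whether these are reads of Ifitm1 was not tested. Adding the near-identical copies to their parent genes gave log2 fold changes of -3.70 for Ifitm1 and -1.13 for Ifitm2.

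The members are alike enough that sharing of reads needs a measure. Their coding sequences were 66.7% (Ifitm3 with Ifitm6) to 81.9% (Ifitm1 with Ifitm3) identical. The translated proteins were 52.9% (Ifitm2 with Ifitm6) to 74.8% (Ifitm2 with Ifitm3) identical. Of all stretches of 50 bases in the transcripts, 6.36% for Ifitm1, 48.5% for Ifitm2, 10% for Ifitm3 and 0% for Ifitm6 also occurred in another annotated transcript. For Ifitm2, 36.1% occurred in Gm45717, a read-through gene at the same place, which was not analysed here. Ifitm2 thus shared the most sequence of the 4, and how the authors treated reads with several matches is not given in the sources used here.

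Over all 23 pools the tested genes with log2(CPM + 10) most like Ifitm1 were Gm7676 (Pearson r = 0.874), Il1r2, a decoy receptor for interleukin 1 (0.764), Fth1, the ferritin heavy chain (0.757), Mt1, a metallothionein (0.757), and Gpr55, a receptor for lysophospholipids (0.741). All 5 were called lower in PGE2-deficient tumours, so these correlations carry the difference between the groups. With the group means removed they fell to 0.498 for Gm7676, 0.48 for Il1r2, 0.0313 for Fth1, 0.291 for Mt1 and 0.378 for Gpr55. Il1r2 averaged 87.61 ± 68.49 CPM in the PGE2-deficient group and 707.1 ± 178.8 CPM in the control group (log2 fold change -2.91, adjusted p = 2.79e-05). Fth1 averaged 1086 ± 79.46 CPM in the PGE2-deficient group and 2495 ± 42.61 CPM in the control group (-1.20, adjusted p = 1.54e-05). Of the 5 genes, Gm7676 and Gpr55 were again in the first 5 with a pseudocount of 1. The call of Gpr55 (adjusted p = 0.0146) did not hold when PGE2-deficient mouse 3 (0.051) or mouse 4 (0.0673) was left out, nor when control mouse 2 (0.0556), mouse 3 (0.0509) or mouse 4 (0.081) was.

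With the group means removed, the genes most like Ifitm1 were Nufip2 (0.684), Eif5 (0.681), March1 (0.678), Elovl5 (0.645) and Med13l (0.632). Eif5 is a translation initiation factor and March1 a ubiquitin ligase that removes MHC class II from the surface of dendritic cells. Only 2 of these 5 stayed with a pseudocount of 1 and 2 with a pseudocount of 50. The other members then had 0.0594 for Ifitm6, 0.0845 for Ifitm2 and 0.127 for Ifitm3.

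Other genes of the interferon pathway were counted beside the Ifitm genes. Of the 17 interferon receptors and signal transducers reported here 10 were tested, and among these edgeR called 0 higher and 0 lower, against 2.7% and 2.26% of all tested genes, with a median log2 fold change of 0.36. DESeq2, run without the count filter, called 1 of the listed genes higher and 0 lower. Over all genes it called 48 higher and 61 lower. At an unadjusted p under 0.05 in edgeR 3 tested members were higher and 1 lower, against 9.63% and 9.1% of all tested genes. The tested genes with the most counts were Jak2, a receptor-bound kinase (log2 fold change -0.04, adjusted p = 0.946), and Irf7, a transcription factor of the interferon response (1.45, adjusted p = 0.0681). Irf7 averaged 263 ± 118.6 CPM in the PGE2-deficient group and 104.7 ± 76.26 CPM in the control group (SD, n = 4 each), and its mice overlapped between the groups. Ifngr1, the ligand-binding chain of the interferon gamma receptor, had a log2 fold change of -1.07 and missed the threshold (adjusted p = 0.0601). It passed with upper quartile factors (adjusted p = 0.0456) and without control mouse 4 (0.0482).

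Of 41 other interferon-induced antiviral effectors, 40 had a row and 13 were tested. Of these, 4 were called higher and 0 lower, and the median log2 fold change was 0.79. DESeq2, run without the count filter, also called 4 of the listed genes higher and 0 lower, against 48 higher and 61 lower over all genes. At an unadjusted p under 0.05 in edgeR 9 tested members were higher and 0 lower. Over all tested genes 2.7% were called higher, and 9.63% were higher at the unadjusted threshold. Isg15, a ubiquitin-like protein that is attached to other proteins, reached 458.1, 521.9, 285.7 and 429.2 CPM in PGE2-deficient mice 1 to 4, against 103.5, 34.4, 120.4 and 31.4 CPM in control mice 1 to 4. Its groups were well apart (log2 fold change 2.58 ± 0.37 SE, adjusted p = 0.000237). Ifi27l2a, a small interferon-induced protein, reached 1306, 1542, 2286 and 1387 CPM in PGE2-deficient mice 1 to 4, against 402.6, 197.9, 381.4 and 290.1 CPM in control mice 1 to 4 (2.38 ± 0.23 SE, adjusted p = 2.04e-06). The log2 fold change was 0.91 for Ly6e, a lipid-anchored surface protein (adjusted p = 0.0466), and 0.79 for Trim30a, a ring-finger protein (adjusted p = 0.0406). The call of Ly6e was lost without PGE2-deficient mouse 2 (adjusted p = 0.0536), 3 (0.167) or 4 (0.0868) and without control mouse 1 (0.0829), 2 (0.142) or 3 (0.146). The call of Trim30a was lost without any mouse but PGE2-deficient mouse 1, at adjusted p from 0.0609 (control mouse 3) to 0.105 (control mouse 2). Both calls were also lost with upper quartile factors (adjusted p = 0.0627 for Ly6e and 0.0562 for Trim30a). Without the pools that held markers of other cells Isg15 (log2 fold change 4.95, adjusted p = 0.00664) and Ifi27l2a (2.91, adjusted p = 0.00323) were called. Ly6e (1.64, adjusted p = 0.235) and Trim30a (0.72, adjusted p = 0.466) were not, with 8 PGE2-deficient and 4 control pools left. This list and the others were drawn up with earlier results of these data known.

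Summed per mouse, the 40 antiviral genes and the 4 Ifitm genes stood in opposite order between the groups. The antiviral genes made up 5002, 5623, 6873 and 5601 counts per 1000000 in PGE2-deficient mice 1 to 4, against 2984, 1901, 2686 and 2908 in control mice 1 to 4. The Ifitm genes made up 2408, 1841, 2725 and 2832 counts per 1000000 in the PGE2-deficient mice and 7646, 9275, 10550 and 10980 in the control mice. Neither sum overlapped between the groups. Within groups, the correlation over pools between Ifitm1 and the antiviral sum was -0.393 in 11 PGE2-deficient pools and -0.532 in 12 control pools, as a description. In the promoter table, 17 of 32 antiviral genes with an entry held the response element core in at least 1 of their windows, as did 3.99% of the 27025 genes in the table.

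**Figure D3:**
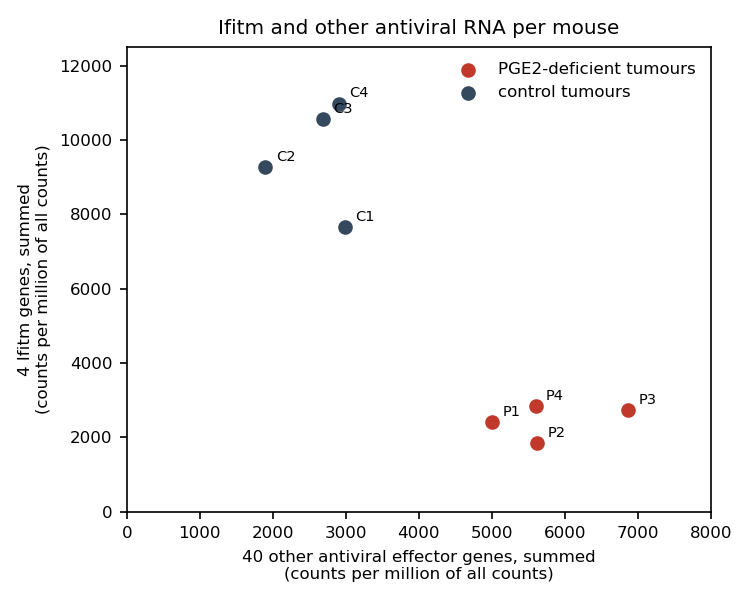
Summed counts per 1000000 of the 4 Ifitm genes (vertical axis) against the 40 other antiviral effector genes (horizontal axis), 1 point per mouse. PGE2-deficient mice (P1 to P4) lie at 5002 to 6873 on the horizontal axis and 1841 to 2832 on the vertical axis, and control mice (C1 to C4) at 1901 to 2984 and 7646 to 10980.

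Of 10 proteins known to bind, modify or sort IFITM proteins, 4 were tested and 0 were called by edgeR or DESeq2, with a median log2 fold change of 0.09. At an unadjusted p under 0.05 there was 1, which was higher, and 18.7% of all tested genes passed that threshold. With 4 genes this count is near that share. The members with the most counts were Cd9, a tetraspanin (log2 fold change 0.08, adjusted p = 0.909), and Vcp, an ATPase that handles ubiquitinated proteins (0.62, adjusted p = 0.208). Of 21 listed cyclic AMP and PGE2 receptors and targets 19 had a row and 9 were tested, and 0 were called higher and 2 lower, against 2.26% lower over all tested genes. DESeq2, run without the count filter, called 0 of the listed genes higher and 4 lower, against 48 higher and 61 lower over all genes. At an unadjusted p under 0.05 in edgeR 3 tested members were higher and 5 lower, against 9.63% and 9.1% of all tested genes. The median log2 fold change was -0.77. Crem, a transcription factor induced by cyclic AMP, averaged 157.9 ± 59.17 CPM in the PGE2-deficient group and 329.4 ± 72.18 CPM in the control group (log2 fold change -1.08, adjusted p = 0.0448). Rgs2, a regulator of G-protein signalling induced by cyclic AMP, averaged 352.2 ± 72.42 CPM in the PGE2-deficient group and 604.7 ± 58.38 CPM in the control group (-0.77, adjusted p = 0.0406). The call of Crem was lost without any mouse but mouse 2 of either group (adjusted p from 0.055 to 0.119). The call of Rgs2 was lost without any mouse but PGE2-deficient mouse 4 and control mouse 1 (adjusted p from 0.051 to 0.106). Both calls were lost by library totals alone, at adjusted p = 0.0662 for Crem and 0.076 for Rgs2, and without the pools that held markers of other cells, where 8 PGE2-deficient and 4 control pools were left. There the log2 fold change was -1.24 for Crem (adjusted p = 0.306) and -1.02 for Rgs2 (adjusted p = 0.299). The interferon genes themselves, 10 listed, were not analysed here.

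**Figure D4:**
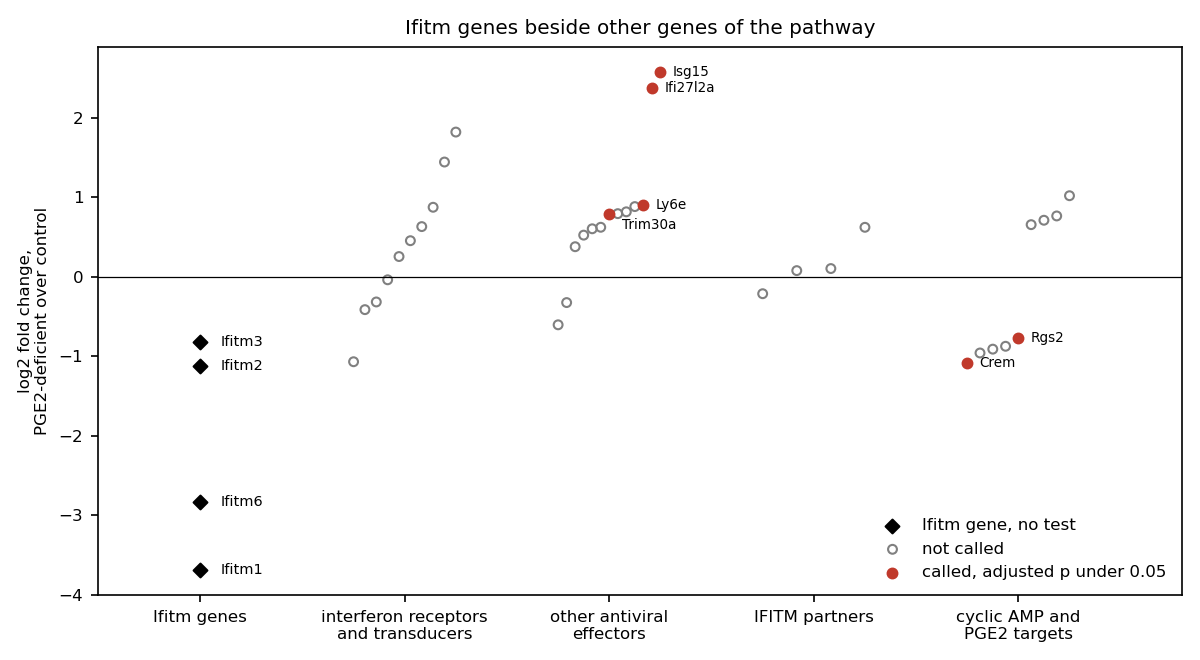
Log2 fold changes (PGE2-deficient over control, vertical axis) of the 4 Ifitm genes and of the tested genes of 4 other lists, 1 symbol per gene. The Ifitm genes lie between -3.69 and -0.81, and the 4 antiviral genes called by edgeR between 0.79 and 2.58.

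Genes next to the cluster were looked at because position was not used to pick the members. Within 200 kb of the span lay 36 other annotated genes, of which 16 had a row and 3 were tested. By edgeR and by DESeq2 0 of these were called. In edgeR 1 (Rnh1, lower) had an unadjusted p under 0.05, as did 18.7% of all tested genes. With 3 genes these counts are near those over all genes. Their log2 fold changes were 0.63 for Gm15542 (edgeR adjusted p = 0.377), -0.59 for Rnh1, the ribonuclease inhibitor (0.251), and -0.34 for Gm5905 (0.363). Gm15542 and Gm5905 are processed pseudogenes, and whether their counts are reads of genes elsewhere was not tested. Ifitm5, the family member of bone-forming cells, had 0 counts in all 23 pools, which allows up to 3 counts over all of them. Ifitm7 and Ifitm10 were not analysed here.

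**Figure D5:**
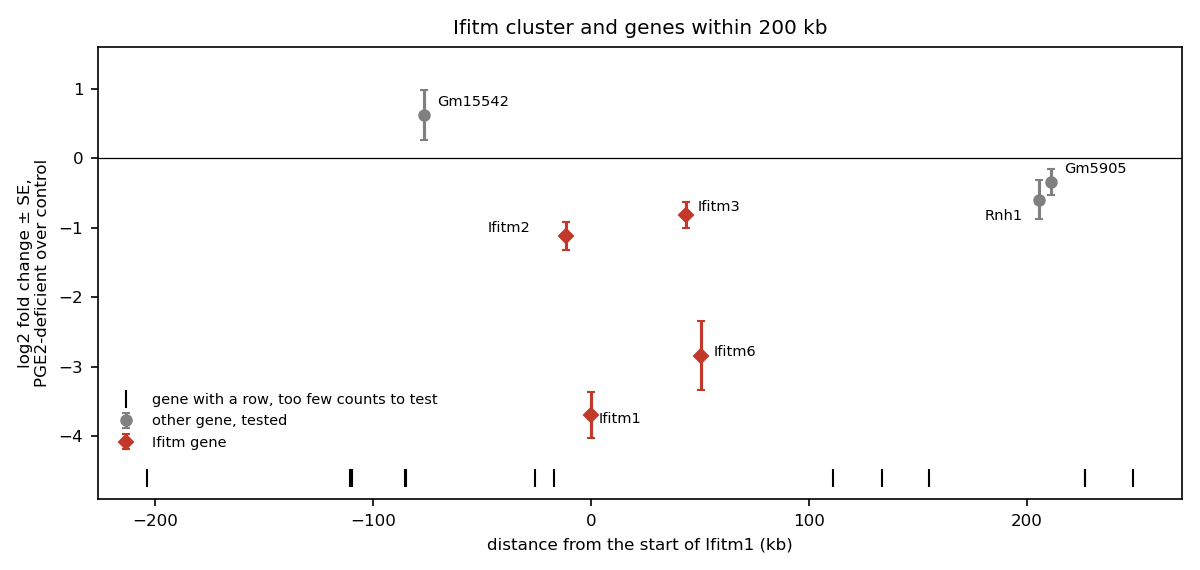
Log2 fold changes ± SE (PGE2-deficient over control, vertical axis) against distance from the start of Ifitm1 in kb (horizontal axis) for the 4 Ifitm genes and the 3 tested neighbours; ticks at the bottom mark genes with too few counts to test. The neighbours lie between -0.59 and 0.63, above every Ifitm gene.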

How the data were processed

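RNA was measured by Smart-seq3 in 23 pools of 10 sorted cDC1 from 8 mice. The authors deposited unnormalized whole-number counts for each gene in each pool. The submitters' processing notes name STAR (2.5.4b) and GRCm38 (mm10). The counting program, the annotation and whether unique molecular identifiers were used are steps not given in the sources used here. In 16 gene names a spreadsheet had written dates, which were replaced through their identifiers.

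Pools of a mouse, called technical replicates per the labels, were summed, so p-values measure the spread between mice. Genes were filtered with filterByExpr (minimum count 10, 2076 genes with 80.6% of the counts) and tested with edgeR 4.0.16 (quasi-likelihood F-test, two-sided, with TMM scaling, a threshold of 0.05 and p-values adjusted by Benjamini-Hochberg across every tested gene). Its common coefficient of variation between mice was 21.9%. The SE of a log2 fold change was worked back from this fit, as its absolute value over the square root of the F statistic. CPM (counts per 1000000) were scaled by TMM to totals over tested genes, and sums over lists were scaled to all counts. The mouse number recurs in both groups but was not used as a pair. DESeq2 1.42.0 was an alternative. It was run without filterByExpr, so its calls can include genes that edgeR did not test. No 2 libraries were duplicates, since chi-squared per degree of freedom was 2.17 or more. Limits for a count of 0 cover counting error only.

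The members and lists were chosen with earlier results of these data known. The text names the 4 members, the called genes of each list (or the 2 with the most counts), and the 5 genes most like Ifitm1 with and without the group means. A gene of the list of interferon receptors and transducers is not reported here and is left out of that list's counts. Ifngr1 and the genes near the cluster were added to these. Spread between pools came from edgeR 4.0.16 with the mouse as a factor. Sequences were read from RefSeq (GRCm38.p6) and GENCODE with Python 3.11.15 and Biopython 1.88, statistics were run in R 4.3.3, and figures were drawn with matplotlib 3.10.9. Other cell types were checked through lists of their markers. The sums over PGE2-deficient and over control pools follow, with the 2 genes of most counts over both groups in brackets. They were 67 and 182 for cDC2 (Cd209a and Sirpa), 1024 and 1056 for monocytes and macrophages (Plac8 and Lyz2), and 170 and 314 for plasmacytoid dendritic cells (Bst2 and Tcf4). For T cells they were 68 and 15 (Cd3d and Trbc2), for NK cells 20 and 3 (Gzmb and Klrb1c) and for B cells 41 and 21 (Ighm and Igkc). For melanoma cells they were 1 and 9 (Dct and Pmel), and for fibroblasts and endothelium 13 and 21 (Pecam1 and Kdr). Neutrophil genes were not analysed here.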

Additional observations from a re-analysis of the deposited data

Results flagged for a closer look

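In 3 of 40 groups of 4 mice, 1 mouse stood far from the other 3. Chance alone flags about 1 in 20 groups. Gm7676 was at 24.8 CPM in PGE2-deficient mouse 4 and at 0 in the other PGE2-deficient mice. The share of Ifitm2 in the Ifitm counts was 20.5% in PGE2-deficient mouse 4, against 36% to 38.8% in the other PGE2-deficient mice. Trim30a was at 401.5 CPM in control mouse 3, against 313.6 to 327 CPM in the other control mice.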

How the results depend on the processing

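The fold changes of the 4 members kept their sign in every alternative run. The log2 fold change of Ifitm1 was -4.53 with pools weighted equally and -4.79 without the pools that held markers of other cells, an alternative chosen after the data were seen, as was the addition of near-identical copies. Leaving out 1 mouse gave -4.41 to -3.36 for Ifitm1, -1.28 to -0.998 for Ifitm2, -0.96 to -0.64 for Ifitm3 and -3.79 to -2.44 for Ifitm6. The control share of Ifitm3 was 21.6% with pools weighted equally. Genes called higher and lower numbered 110 and 84 with no count filter, 32 and 25 with a minimum count of 20, 32 and 19 with technical replicates 2 and 3 alone and 6 and 4 without the pools with markers. By library totals 24 were called lower. Leaving out 1 mouse gave 31 to 67 higher and 23 to 45 lower. Mice of the same number correlated by -0.0893 to 0.1 in their deviations and were not treated as pairs. With so few mice this does not show whether the numbers mark pairs, and the labels do not say. With the mouse number as a replicate block 45 genes were called higher and 28 lower. Under this block 1 receptor or transducer and 2 antiviral effectors were higher and 0 cyclic AMP genes lower.

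Among receptors and transducers, 1 was called lower with upper quartile factors, and 3 (no filter) and 1 (DESeq2) were called higher; leaving out 1 mouse gave 0 to 1 higher and 0 to 1 lower. Antiviral effectors called higher numbered 2 with upper quartile factors, 2 without the pools with markers and 2 to 4 with 1 mouse left out. Of the IFITM partners 1 was called higher with no filter and 0 to 1 with a mouse left out. Cyclic AMP genes called lower numbered 4 with upper quartile factors, no filter or DESeq2, 1 with a minimum count of 20, and 0 by library totals, with technical replicates 2 and 3 or without the pools with markers; 1 was called higher by library totals and 1 with no filter. Leaving out 1 mouse gave 0 to 2 higher and 0 to 4 lower. Where these counts moved, the cause was not tested. Some of these runs held fewer genes (1012 with a minimum count of 20, 1118 without the pools with markers) or fewer samples. Single calls were also lost under the block (adjusted p = 0.0746 for Ly6e, 0.0528 for Trim30a, 0.0804 for Crem and 0.0504 for Rgs2), with technical replicates 2 and 3 (0.0527 for Trim30a, 0.0577 for Crem and 0.0722 for Rgs2), with no filter (0.0913 for Trim30a and 0.0691 for Rgs2) and with a minimum count of 20 (0.0512 for Crem). Gm7676 and Gpr55 had no value with that minimum count, with DESeq2, with technical replicates 2 and 3 or without the pools with markers. Depth limits Ifitm6 and Gm7676 most, whose PGE2-deficient values rest on 28 and 3 counts.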
